A study of Mus musculus with 15 samples.

Results

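FGF signalling through ERK was followed at the level of RNA in mouse embryonic stem cells (ESC), by the ligand Fgf4, the receptor Fgfr1, the feedback genes Spry2, Spry4, Dusp6, Etv4 and Etv5, and the immediate early genes Egr1, Fos and Jun. These 10 genes, of 21662 in the count tables, were picked by their gene symbols, and all 10 passed the filter on low counts in both experiments. The ESC (159 background, mixed 129Sv-C57Bl/6) were grown with serum and LIF on feeder cells or gelatine, and the parental line carries the BirA-V5 biotin ligase, as the study's methods state. The first, or KO, experiment had 9 samples. They were wild type (WT; letters a, b and c), Hmga1 KO (a and b), a clone in which Cas9 shifted the reading frame of Hmga1, and 2 lines made from the KO, labelled Hmga1 add-back and Hmga2 add-back (a and b each), in which biotin-tagged cDNA driven by the ubiquitous CAG promoter sits at a defined locus. In this experiment the letters are batches, that is, the day of library preparation and the flow cell. Culture, harvest, library and sequencing therefore cannot be told apart within a letter, and WT c is alone in its batch. The second, or full-deletion, experiment had 3 WT samples and 3 of a clone without the coding sequence of Hmga1. Each mutant genotype is a single line, so a property of the clone and an effect of the genotype cannot be told apart.

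Fgf4, secreted by ESC themselves, binds Fgfr1 and activates the RAS-RAF-MEK-ERK kinase cascade, which pushes ESC out of naive self-renewal and, in the early embryo, directs inner cell mass cells to the primitive endoderm. ERK activity is read from its targets. Egr1, Fos and Jun encode transcription factors that are transcribed within minutes of a stimulus, while Sprouty proteins (Spry2, Spry4) restrain the cascade upstream, Dusp6 dephosphorylates ERK, and Etv4 and Etv5 are ETS factors that carry the response to target genes. RNA of immediate early genes also responds to serum and to handling of cells.

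RefSeq promoters (GRCm38.p6) were found for 6 of the 10 genes, and the 150 bases before the start site are shown for 5 of them, to set the feedback genes Spry2 and Dusp6 and the ligand Fgf4 beside the immediate early pair Fos and Jun. Capitals mark matches, searched on both strands, to 4 motifs. Of all 32851 promoters in the table, 5.15% held TGACGT (the core of a CREB/ATF site) in the same window, 2.32% held TGACATCA (an AP-1-like octamer), 7.57% held the TATA box TATAAA, and 24.5% held CCAAT (the NF-Y motif). A match is a description of the letters and not a bound site.
Fgf4: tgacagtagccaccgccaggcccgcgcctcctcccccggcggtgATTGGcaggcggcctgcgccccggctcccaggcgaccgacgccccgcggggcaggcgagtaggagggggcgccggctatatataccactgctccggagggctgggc
Spry2: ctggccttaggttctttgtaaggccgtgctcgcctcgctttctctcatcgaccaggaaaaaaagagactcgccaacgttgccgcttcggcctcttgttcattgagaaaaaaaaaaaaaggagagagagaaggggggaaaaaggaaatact
Dusp6: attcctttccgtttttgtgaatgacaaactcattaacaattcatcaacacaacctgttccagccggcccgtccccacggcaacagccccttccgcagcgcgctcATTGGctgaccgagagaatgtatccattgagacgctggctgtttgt
Fos: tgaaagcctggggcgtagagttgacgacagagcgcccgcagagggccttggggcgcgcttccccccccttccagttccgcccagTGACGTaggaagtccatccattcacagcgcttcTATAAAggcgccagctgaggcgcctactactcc
Jun: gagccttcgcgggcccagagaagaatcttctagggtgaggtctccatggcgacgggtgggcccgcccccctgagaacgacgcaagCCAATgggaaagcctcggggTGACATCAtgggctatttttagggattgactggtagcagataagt
The windows lie at chr7:144861236-144861385 on the plus strand, chr14:105896820-105896969 on the minus strand, chr10:99263081-99263230 on the plus strand, chr12:85473740-85473889 on the plus strand and chr4:95052223-95052372 on the minus strand, in that order. Fos holds TGACGT from 66 bases before its start and the TATA box from 33 bases before it. Jun holds TGACATCA from 45 bases before its start and CCAAT from 65 bases before it. On the opposite strand CCAAT stands 46 bases before the start of Dusp6 and 106 bases before that of Fgf4, and the Spry2 window holds none of the motifs. The ETS motif CCGGAAGT and the CArG box bound by SRF were also searched for (2.4% and 0.916% of all promoters) and were not in these 5 windows.

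RNA of Fgf4, Spry4 and Etv5 was the most abundant of the 10 genes and that of Fos and Jun the scarcest. Per length, in RPKM (counts per kilobase of exon, scaled to library size), WT of the KO experiment had 81.2 ± 12.1 for Fgf4 (SD, n = 3), 71.9 ± 20.7 for Spry4 and 70.2 ± 13.1 for Etv5, 3 means that lay within 1 SD of their neighbours. Then followed Spry2 with 44.7 ± 5.02, Dusp6 with 36.3 ± 5.58, Etv4 with 22.3 ± 3.88 and Fgfr1 with 19.96 ± 4.67, of which Etv4 and Fgfr1 lay within 1 SD. The immediate early genes were lowest, with 7.45 ± 5.99 RPKM for Egr1, 1.503 ± 0.166 for Jun and 0.953 ± 0.324 for Fos, and Egr1 varied so much that Jun lay within 1 SD of it. WT of the full-deletion experiment, normalized separately, had 173 ± 10.5 RPKM for Fgf4, 68.9 ± 1.59 for Etv5, 45.2 ± 0.887 for Spry4, 18.2 ± 3.27 for Etv4 and 17.7 ± 3.49 for Spry2. Dusp6 had 13.4 ± 3.35 RPKM there, Fgfr1 12.7 ± 3.99 and Egr1 11.3 ± 3.21, again within 1 SD of their neighbours, and Jun had 1.89 ± 0.141 and Fos 0.386 ± 0.120. Fos rested on 10 to 242 reads per sample, so its ratios carry the most counting error. From here on, levels are in CPM, counts scaled to a common library size after TMM normalization, which suit a comparison of 1 gene between samples.

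**Figure D1:**
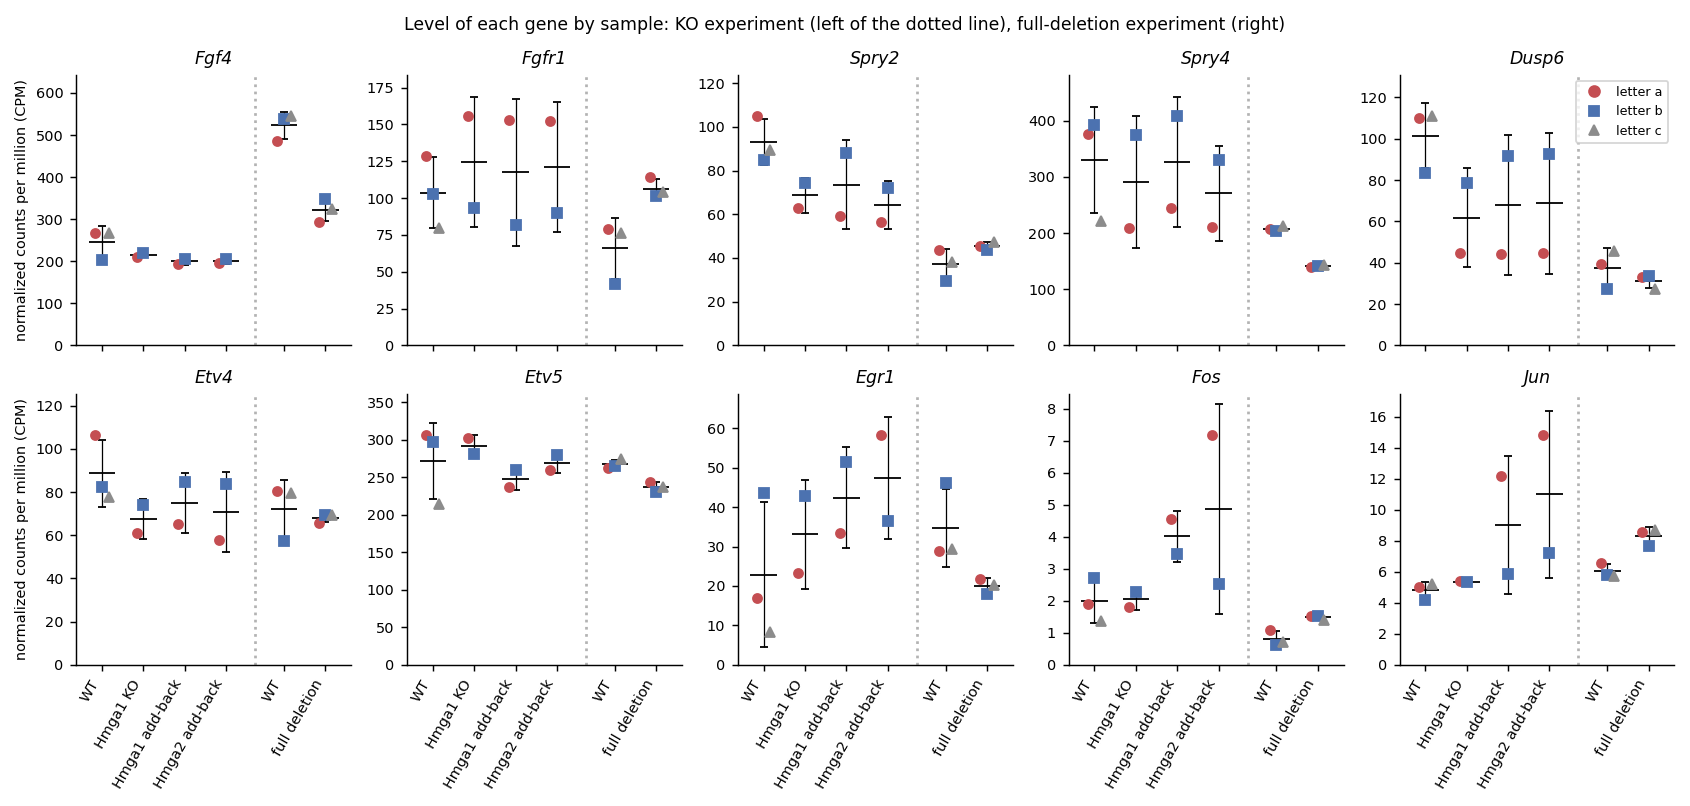
CPM of each gene (y axis, linear, from 0) in every sample, grouped by genotype, with letters a, b and c as circles, squares and triangles, and the mean ± SD as bars. In the KO experiment Dusp6 of the 3 KO-derived lines lay near 44 to 45 CPM in letter a and at 78.75 to 92.8 in letter b, while Fgf4, Spry4, Etv5 and Egr1 of the full deletion lay below all 3 WT samples.

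Counts per sample summed to between 13465399 and 34952136, and each batch a library of the KO experiment was deeper than its batch b partner. The targeted gene, Hmga1 (chromosome 17, 27693565 to 27700619, NCBIM37), stood at 46.7% and 34.8% of WT of the same letter in KO (log2 fold change −1.29, edgeR adjusted p = 0.0534). In the full deletion it fell to between 3.42% and 3.51% (−4.86, adjusted p = 1.06e-05). The study's Western blots detected no Hmga1 protein in either clone. For the KO the study also describes a shorter Hmga1 transcript that lacks an exon, so the RNA left there is not a measure of protein. In the Hmga2 add-back Hmga2 stood at 235 ± 19.2 CPM (SD, n = 2) against 17.5 ± 5.67 in WT (SD, n = 3). In the line labelled Hmga1 add-back the Hmga1 count was not above that of KO (log2 difference 0.04, SE 0.17). By Western blot the study reports that Hmga1 protein in this line was back at a level comparable to WT, and the blots are not analysed here. Whether reads of the tagged cDNA are counted under Hmga1 is not given in the sources used here. The pluripotency list (8 genes, among them Pou5f1 and Nanog) lay between 4510 and 5450 CPM in the 9 samples of the first experiment and between 3994 and 7441 in the 6 of the second. The 7441 belonged to WT b of the full-deletion experiment, which stood apart from its replicates: the chi-square per degree of freedom was 140 and 133 against WT a and c, and 4.04 to 6.75 for the other replicate pairs of that experiment. In the KO experiment it was 49.3 to 106. The edgeR results that rest on WT b are given with and without it.

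The first question was whether loss of Hmga1 shifts the pathway. In Hmga1 KO against WT, the 4 feedback genes Spry2, Spry4, Dusp6 and Etv4 had lower fitted levels and the other 6 differed from WT by −0.18 to 0.23 on the log2 scale. The samples of batch a were farther apart than those of batch b. Dusp6 (chromosome 10, 98725865 to 98730122; all gene positions are those of NCBIM37) had 110, 83.5 and 111 CPM in the 3 WT samples (given, here and from now on, in the order of their letters) against 44.8 and 78.75 in the 2 KO samples. All 3 WT samples were above both KO samples, the second of them narrowly. Spry2 (chromosome 14, 106291166 to 106296036) had 105, 85.0 and 89.6 CPM in WT against 63.0 and 74.3 in KO, with no overlap either. Spry4 (chromosome 18, 38745922 to 38760922) had 376, 393 and 221 CPM in WT against 209 and 375, and Etv4 (chromosome 11, 101631056 to 101646685) had 106, 82.2 and 77.6 against 61.1 and 74.3. KO b of Spry4 thus lay within the WT range. Both KO samples of Etv4 lay below its WT range, KO b narrowly. The log2 fold changes were −0.78 for Dusp6 (SE 0.32), −0.51 for Etv4 (SE 0.20), −0.49 for Spry2 (SE 0.19) and −0.48 for Spry4 (SE 0.18). None of them passed the quasi-likelihood test of edgeR, with p adjusted after Benjamini and Hochberg (adjusted p between 0.348 and 0.372).

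The stricter of 2 rules asked for a change of at least 2-fold with an adjusted p under 0.01, and the second rule only for an adjusted p under 0.05. By both rules edgeR called 0 of the 10 genes in KO against WT, where 0.0216% and 0.0647% of all 13912 genes were called. DESeq2 and limma-trend also called 0. At an unadjusted p under 0.05 there were 4 of 10, all lower, beside 12.6% of all genes. The median log2 fold change was −0.16 over the 10 genes and −0.01 over all genes tested.

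Within batches the feedback genes of the KO and of the lines made from it went side by side. In batch a Dusp6 stood at 40.7% of WT in KO, 40.7% in the Hmga2 add-back and 40.1% in the line labelled Hmga1 add-back, and in batch b at 94.3%, 111% and 110%. Spry2 stood at 53.9% to 60.001% of WT in batch a and at 84.7% to 103% in batch b. For Spry4 the ranges were 55.5% to 65.2% and 84.2% to 104%, and for Etv4 54.2% to 61.4% and 90.3% to 103%. Etv5, the other ETS factor, had no such gap, with 77.6% to 98.7% in batch a and 87.4% to 94.7% in batch b. The 3 lines of a batch share 1 WT library as their denominator, so these percentages are not independent of each other. From batch a to batch b, Dusp6 itself went to 76.0% of its level in WT but to 176%, 208% and 208% in the 3 KO-derived lines.

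**Figure D2:**
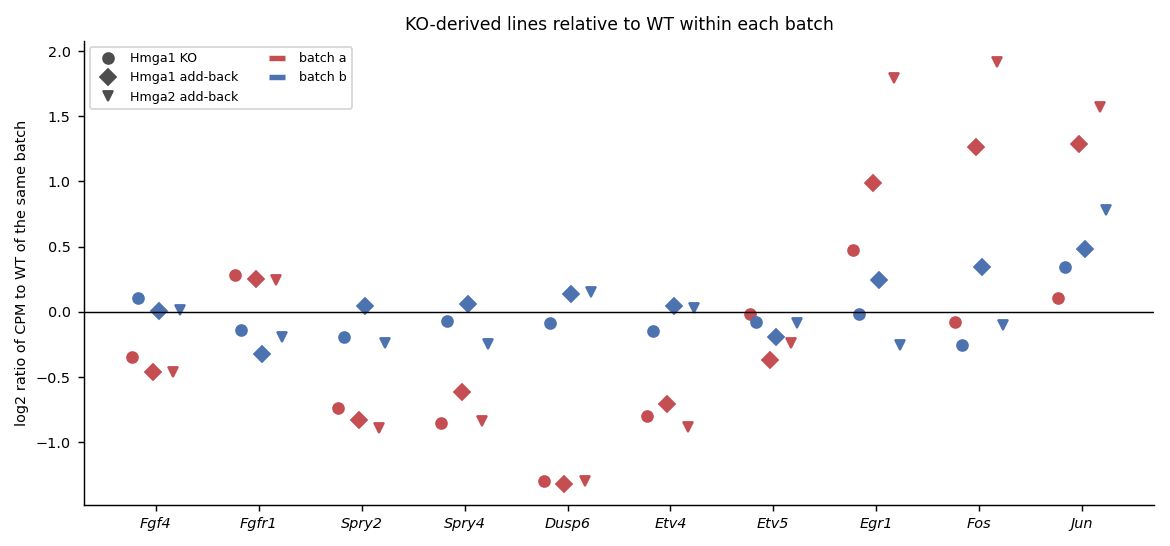
Log2 ratio of CPM to WT of the same batch (y axis, 0 is WT) for each gene in Hmga1 KO (circles), the line labelled Hmga1 add-back (diamonds) and the Hmga2 add-back (triangles), in batch a (red) and batch b (blue). In batch a Spry2, Spry4, Dusp6 and Etv4 lay below 0 in all 3 lines and in batch b near it, and Egr1, Fos and Jun of both add-backs were highest in batch a.

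The gap between batches was also fitted as a term for the 3 KO-derived lines in batch b, added after the gap had been seen. WT has 1 library in each of batches a and b, so the spread in this fit comes from the KO-derived lines alone, and the values describe the gap and do not test it. The term was 1.37 on the log2 scale for Dusp6 (SE 0.18), 0.77 for Etv4 (SE 0.18), 0.69 for Spry2 (SE 0.19) and 0.68 for Spry4 (SE 0.17). It was 0.47 for Fgf4 (SE 0.16) and −0.48 for Fgfr1 (SE 0.17). In this fit edgeR called 0 of 10 genes by either rule, beside 0% and 0.0503% of all genes, and 6 of 10 had an unadjusted p under 0.05, beside 13% of all genes. DESeq2 had 1 gene past both rules and limma-trend 0.

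Which WT library stood for WT decided the calls. With WT a or WT b left out, a single WT library stands against the KO-derived lines, since the batch term takes up WT c, and this library is assumed to vary as the KO-derived lines do. Without WT b, Dusp6 had a log2 fold change of −1.37 (adjusted p = 0.00461), Etv4 −0.86 (0.0169), Spry2 −0.81 (0.0235) and Spry4 −0.80 (0.0188). Then 4 of 10 genes passed an adjusted p under 0.05 in KO, as 5.25% of all genes did, and Dusp6 was called by the stricter rule. Without WT a, Dusp6 had 0.01 (SE 0.14), Etv4 −0.08, Spry2 −0.11 and Spry4 −0.11, and no gene of the 10 passed. Likewise without WT b, these 4 genes passed in the line labelled Hmga1 add-back, and with Jun they passed in the other add-back, where 5.75% and 9.36% of all genes did.

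**Figure D3:**
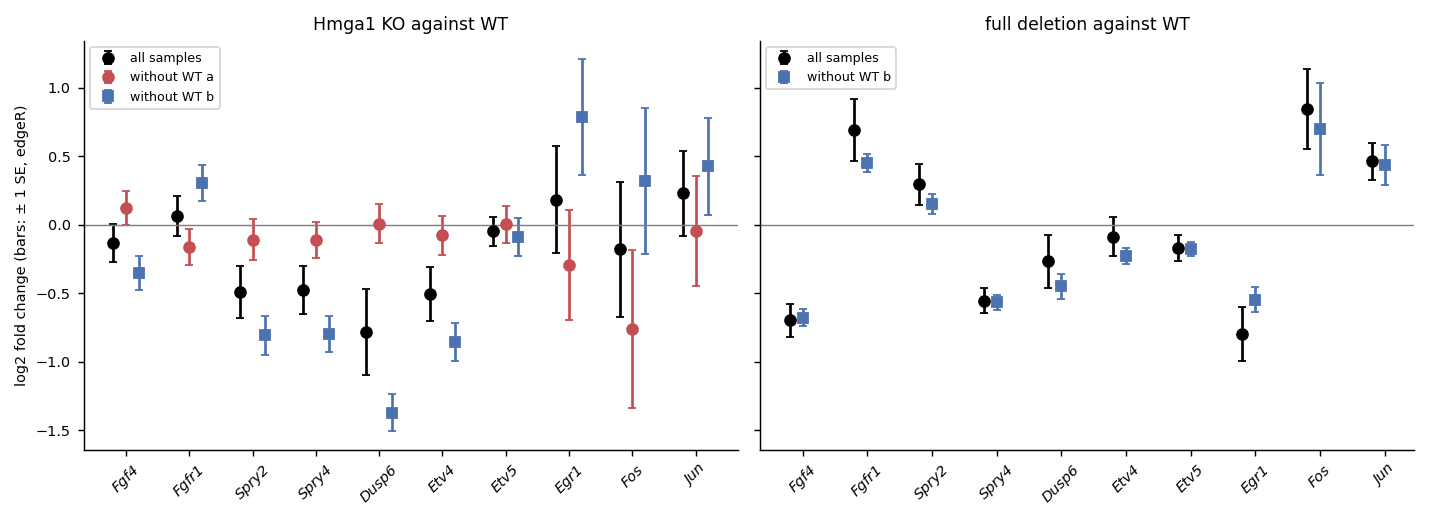
Log2 fold change ± 1 SE (edgeR) of each gene in Hmga1 KO against WT (left) and in the full deletion against WT (right), with all samples (black), without WT a (red) and without WT b (blue). Dusp6 in KO went from −0.78 to 0.01 without WT a and to −1.37 without WT b, while in the full deletion Fgf4 and Spry4 hardly moved.

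Markers of primitive endoderm, the lineage that needs FGF signalling in the embryo, also differed between these samples. The 6 genes of the list (Gata4, Gata6, Sox17, Sox7, Pdgfra and Dab2, none at 0 in any group) summed to 116 CPM in WT a, 38.7 in WT b and 78.7 in WT c. In batch a they summed to 10.4 in KO, 27.0 in the Hmga2 add-back and 24.96 in the line labelled Hmga1 add-back, and in batch b to 31.9, 22.1 and 67.0. In the full-deletion experiment all 6 samples lay between 10.5 and 13.7 CPM. WT a was thus highest in this list and, with WT c, in Dusp6. The KO-derived lines of batch a were the lowest in Dusp6 and low in the list, where the Hmga2 add-back of batch b was low as well, with 92.8 CPM of Dusp6. Spry4 did not follow the list, since it had 393 CPM in WT b and 221 in WT c. Each of the 6 genes had an unadjusted p under 0.05 with edgeR in KO against WT (median log2 fold change −2.35), beside 12.6% of all genes. In the Hmga2 add-back 4 of the 6 did (−1.73), beside 16.9%, and in the line labelled Hmga1 add-back 0 did (−0.91), beside 13.3%. None passed an adjusted p under 0.05 with edgeR in these comparisons. Neural genes (Sox1, Pax6 and Nes) summed to 62.1 to 79.6 CPM in WT and to 34.3 to 51.9 in the 6 KO-derived samples. In bulk RNA, fewer cells of a type and less RNA per cell cannot be told apart, and the part of such cells in the feedback gene values was not tested.

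**Figure D4:**
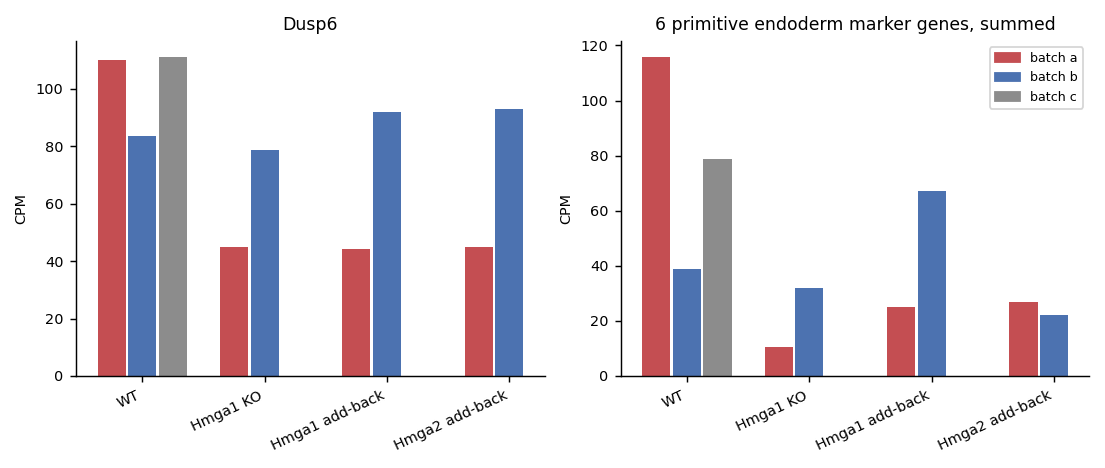
CPM of Dusp6 (left) and of 6 primitive endoderm marker genes summed (right) in each sample of the KO experiment, with batches a, b and c in red, blue and grey; bars start at 0. WT a had 110 CPM of Dusp6 and 116 of the markers, while KO a had 44.8 and 10.4.

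The comparisons of KO and of both add-backs with WT share the same 3 WT samples. Against WT, the 4 feedback genes had fitted values of −0.67 to −0.30 on the log2 scale in the add-backs, and Jun and Fos, the partners that make up the AP-1 factor, were high in some of their samples. Jun (chromosome 4, 94715725 to 94718913) had 4.997, 4.19 and 5.19 CPM in WT, 5.39 and 5.32 in KO, 12.2 and 5.85 in the line labelled Hmga1 add-back, and the samples of the Hmga2 add-back had 14.8 and 7.18. All 6 KO-derived samples were above all 3 WT samples, and those of the add-backs in batch a stood far out. Of the 10 genes Jun was the only one with such a separation, 1 of 10 beside 8.84% of all genes. Its log2 fold change was 0.94 (SE 0.30, edgeR adjusted p = 0.279) in the line labelled Hmga1 add-back, and 1.22 (SE 0.30, adjusted p = 0.139) in the Hmga2 add-back. With DESeq2 the latter passed (adjusted p = 0.0314), the only one of the 10 genes to do so against WT, and with limma-trend none did.

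Fos (chromosome 12, 86814840 to 86818223) had 1.90, 2.72 and 1.37 CPM in WT and 1.80 and 2.28 in KO. It had 4.57 and 3.45 in the line labelled Hmga1 add-back, and the samples of the Hmga2 add-back had 7.17 and 2.53. Of the 4 add-back samples only that of the Hmga2 add-back in batch b lay within the WT range. The log2 fold changes against WT were 0.82 (SE 0.47) and 1.09 (SE 0.47; adjusted p = 0.292), and without sample a of the Hmga2 add-back the latter was 0.11. Egr1 (chromosome 18, 35020861 to 35024638), a zinc finger factor, had 16.9, 43.5 and 8.26 CPM in WT, 23.4 and 42.9 in KO, 33.4 and 51.5 in the line labelled Hmga1 add-back, and the samples of the Hmga2 add-back had 58.3 and 36.4. WT itself varied more than 5 times here, and both KO samples and 2 of the 4 add-back samples lay in its range.

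In the line labelled Hmga1 add-back against WT, edgeR called 0 of 10 genes by either rule (0.0144% and 0.0431% of all genes), and 2 had an unadjusted p under 0.05, Jun and Etv5 (−0.28, SE 0.11), beside 13.3%. In the Hmga2 add-back it called 0 of 10 (0.0647% and 0.165% of all genes), and 4 had an unadjusted p under 0.05, beside 16.9%. These were Jun and Fos, higher, and Spry2 (−0.59, SE 0.19) and Spry4 (−0.57, SE 0.18), lower. Feeder fibroblast genes also varied: the list of 8 summed to 18.1 and 19.4 CPM in sample a of the 2 add-backs and to 4.66 to 12.2 in the other samples of that experiment, with 3 of the 8 at 0 in each add-back. Thy1 and Fbln2 made up most of this sum (means of 9.97 and 4.12 CPM in the Hmga2 add-back against 4.003 and 1.25 in WT). The collagen genes of the list were split in the Hmga2 add-back. Col1a2 (0.322 against 0.579 CPM) and Col3a1 (0.0352 against 0.418) were lower than in WT, and Col1a1 (0.69996 against 0.4192) was higher. Genes of the formative epiblast summed to 144 and 137 CPM in the same 2 samples and to between 207 and 296 in the others, with none at 0. Dnmt3b made up most of this sum, with a lowest value of 120 and 107 CPM in the 2 add-backs against 223 in WT. Otx2 lay within the WT range in both (17.5 to 22.0 and 23.2 to 24.0 CPM, against 12.5 to 27.0). Handling-stress genes did not set sample a of the add-backs apart (95.0 and 82.6 CPM, within 77.4 to 97.8). The part of such cells in the Jun and Fos values was not tested.

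Whether the tagged proteins moved the genes away from the KO level was asked against KO directly. For the line labelled Hmga1 add-back, edgeR called 0 of 10 by both rules, as in 0% and 0% of all genes. Jun had the only unadjusted p under 0.05 (0.71, SE 0.30), beside 2.8%. For the Hmga2 add-back it called 0 of 10, beside 0.00719% and 0.0144%. Fos (1.27, SE 0.47) and Jun (0.99, SE 0.30) had unadjusted p under 0.05, beside 5.09%, and an adjusted p of 0.877 each. Against KO, Fos was at 0.28 without sample a of the Hmga2 add-back, and without KO a Jun was at 0.56 in the Hmga2 add-back and at 0.27 in the line labelled Hmga1 add-back. DESeq2 and limma-trend called 0 in both comparisons. The 4 feedback genes differed from KO by −0.10 to 0.18 on the log2 scale in the 2 add-backs, with SE of 0.18 to 0.31.

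Neither ligand nor receptor was called between genotypes in the KO experiment, but Fgf4 was below WT in batch a. Fgf4 (chromosome 7, 152047291 to 152051148) had 268, 204 and 267 CPM in WT and 194 to 219 CPM in the 6 KO-derived samples, and only WT b lay among the latter. Fgfr1 (chromosome 8, 26624126 to 26686186) had 128, 103 and 80.0 CPM in WT, 156, 153 and 152 in the KO-derived lines of batch a, and 93.4, 82.0 and 89.7 in those of batch b. Here the batches, not the genotypes, were separated. Etv5 (chromosome 16, 22381382 to 22439792) had 306, 297 and 214 CPM in WT and 237 to 302 in the KO-derived lines, all within the WT range.

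Batch b against batch a, with genotype as a term, changed 2 of the 10 genes at an adjusted p under 0.05. Fgfr1 fell by 0.68 on the log2 scale (SE 0.10, adjusted p = 0.00288), and Spry4 rose by 0.58 (SE 0.13, adjusted p = 0.0106). Such a shift was common, since 35.6% of all genes passed, 2581 of the 4959 higher (1618 of 5104 when scaled by summed counts). By the stricter rule 0 of 10 were called, beside 2.34% of all genes, and 4 of 10 had an unadjusted p under 0.05, beside 47%. Without WT a or without WT b, 6 of 10 passed the second rule (Spry2, Dusp6, Etv4 and Jun besides), where 42.1% and 41.7% of all genes did. Without 1 or the other KO sample Spry4 did not pass (adjusted p = 0.0644 and 0.0574), while Fgfr1 did and so did Jun.

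In the full-deletion experiment Fgf4 and Spry4 fell. With all samples Spry2, Dusp6 and Etv4 did not pass, and without WT b Dusp6 and Etv4 did. Fgf4 had 487, 538 and 546 CPM in WT against 294, 349 and 325 in the deletion, a fall of 0.70 on the log2 scale (SE 0.12, edgeR adjusted p = 0.0279). Spry4 had 207, 204 and 212 CPM in WT and 140, 141 and 143 in the deletion, with a log2 fold change of −0.55 (SE 0.09, adjusted p = 0.0250). In both the deletion lay well below WT in all samples. By the second rule 2 of 10 genes passed, both lower, beside 8.25% of all genes, and by the stricter rule 0 of 10, beside 0.0687%. At an unadjusted p under 0.05 there were 6 of 10, beside 37%. With DESeq2 4 passed the second rule (Fgfr1 and Egr1 besides), where 24.7% of all genes did, and with limma-trend 2, where 7.76% did.

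The other genes had adjusted p of 0.0515 or more. Egr1 had 28.9, 46.2 and 29.4 CPM in WT and 21.8, 18.0 and 20.2 in the deletion (−0.80, SE 0.20). Fgfr1 had 78.9, 41.9 and 76.6 CPM in WT and 114, 101 and 104 in the deletion (0.69, SE 0.23). Jun had 6.55, 5.82 and 5.73 CPM in WT and 8.59, 7.69 and 8.72 in the deletion (0.46, SE 0.14). For these 3, as for Fos and Etv5, WT and deletion did not overlap, yet WT b was the farthest from the deletion in Egr1, Fgfr1 and Fos. Fos had 1.09, 0.61 and 0.72 CPM in WT and 1.51, 1.51 and 1.41 in the deletion (0.85, SE 0.29). In all, 7 of 10 genes had no overlap, 4 below and 3 above WT, beside 51.3% of all genes. Without WT b there were 9 of 10, with Dusp6 and Etv4 besides, beside 62.2% of all genes. With WT b, Spry2 (29.2 to 43.7 CPM in WT, 43.6 to 47.5 in the deletion), Dusp6 (27.3 to 45.8 against 27.1 to 33.6) and Etv4 (57.4 to 80.4 against 65.9 to 69.4) overlapped. Handling-stress genes summed to 92.5 to 96.8 CPM in WT and to 114 to 124 in the deletion, with none of 6 at 0, and 2 of the 6 passed the second rule, both higher. Genes of the formative epiblast summed to 293 to 333 CPM in WT and to 214 to 230 in the deletion. Of these Dnmt3b, with most of the sum, fell from 287 to 179 CPM (−0.68, adjusted p = 0.0250) and Otx2 rose from 12.6 to 32.05 (1.34, adjusted p = 0.0334), and the median over the list was −0.09. Feeder genes summed to 4.04 to 6.93 CPM in WT and 7.95 to 9.68 in the deletion. These marker results are those of the fit with all samples. Without WT c, or without any 1 deletion sample, at most 0.0305% of all genes passed the second rule. The part of these lists in the values of the 10 genes was not tested.

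Without WT b, 8 of 10 genes of the full deletion passed an adjusted p under 0.05, where 42.5% of all genes did. Fgf4 then had −0.68 (SE 0.06, adjusted p = 2.13e-07), Spry4 −0.57 (SE 0.05, 1.72e-07), Egr1 −0.55 (SE 0.09, 1.11e-04) and Dusp6 −0.45 (SE 0.09, 7.00e-04). Etv4 (−0.23) and Etv5 (−0.18) were lower too, and Fgfr1 (0.45) and Jun (0.44) were higher, while Spry2 (0.15) and Fos (0.70) did not pass. Without WT c, or without any 1 deletion sample, 0 of 10 passed (adjusted p of Fgf4 0.0761 to 0.160, of Spry4 0.0761 to 0.160). Scaling by summed counts moved the median of all genes from 0.04 to 0.32, and Fgf4 (−0.41) and Spry4 (−0.27) then stood at adjusted p of 0.0793 and 0.174. Of the genes that passed, 586 of 1080 were higher with TMM scaling and 544 of 664 with summed counts.

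Both Hmga1-loss lines were compared in a joint fit of all 15 samples. The change in the full deletion minus that in the KO was 0.78 for Spry2 (SE 0.26, adjusted p = 0.223), −0.58 for Fgf4 (SE 0.20, adjusted p = 0.225) and 0.51 for Dusp6 (SE 0.40), while for Spry4 it was −0.09 (SE 0.21). None of the 10 genes was called with edgeR by either rule, beside 0.0951% and 0.307% of all genes, nor with DESeq2 or limma-trend. Spry2 and Fgf4 had unadjusted p under 0.05, 2 of 10 beside 18.4%. Without WT b of the full-deletion experiment Spry2 was at 0.61 (SE 0.22, adjusted p = 0.121), Fgf4 at −0.58 (SE 0.17, adjusted p = 0.0665) and Dusp6 at 0.30, and edgeR again called 0 of 10 by both rules, where 4.87% of all genes had an adjusted p under 0.05. The 2 experiments have their own WT samples, and a difference between lines cannot be told apart from one between experiments.

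The rest of the pathway was followed over 79 further genes: ligands, receptors, the kinase cascade, feedback inhibitors, ETS and SRF factors, and immediate early genes, of which 71 had enough counts to be tested in the first experiment and 69 in the second. Neither against WT (KO and both add-backs) nor against KO (both add-backs) did any of them pass: 0 had an adjusted p under 0.05 with edgeR or limma-trend. At an unadjusted p under 0.05 there were 14, 12 and 14 of 71 against WT (12.6%, 13.3% and 16.9% of all genes) and 1 and 3 against KO (2.8% and 5.09%). DESeq2 had 1, 1 and 3 past an adjusted p under 0.05 against WT, beside 1.43%, 1.44% and 2.36% of all genes, and 0 against KO. Without WT b, where a single WT library stood for WT, edgeR had 5, all lower, in KO, beside 5.25% of all genes. It had 1 higher and 4 lower in the line labelled Hmga1 add-back, beside 5.75%, and 2 higher and 4 lower in the Hmga2 add-back, beside 9.36%. In the latter 2 were past the stricter rule, as were 105 of all 14011 genes. In the full deletion 11 of 69 passed the second rule, beside 8.25% of all genes, and 0 the stricter one. At an unadjusted p under 0.05 there were 28 of 69, near the 37% of all genes. The 6 higher ones included the receptor Fgfr4 (1.58 on the log2 scale, SE 0.34), the immediate early genes Ier3 (1.21, SE 0.29) and Ier5 (1.04, SE 0.24), the ERK phosphatase Dusp4 (0.97, SE 0.18) and the AP-1 member Jund (0.94, SE 0.21). Frs2 of the cascade (0.54) was the last of the higher ones. The 5 lower ones were Myc (−0.77, SE 0.10), the ETS factors Etv6 (−0.69) and Etv1 (−0.58), Gab1 (−0.57) and the feedback inhibitor Spred1 (−0.44). Without WT b, 32 passed, 18 higher and 14 lower, where 42.5% of all genes did. Without WT c or without any 1 deletion sample 0 passed, beside at most 0.0305% of all genes. The median log2 fold change over the list was 0.16, beside 0.04 over all genes and −0.13 over the 10 genes. Between batches b and a 29 of 71 passed, near the 35.6% of all genes, 9 higher and 20 lower, among them all 4 further receptors (Fgfr2, Fgfr3, Fgfr4 and Fgfrl1, −0.75 to −1.61), as Fgfr1 did. In the joint fit 0 of 72 passed with edgeR, beside 0.307% of all genes. At an unadjusted p under 0.05 there were 15, beside 18.4% of all genes, 14 of them higher in the full deletion relative to KO. With DESeq2 1 passed, beside 2.41% of all genes, and with limma-trend 0. Without WT b of the full-deletion experiment 4 higher and 1 lower passed with edgeR, beside 4.87%.

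The genes most like the feedback genes were sought over all 15 samples, on log2 CPM centred within each experiment, among 9672 genes. The mean of Spry2, Spry4, Dusp6, Etv4 and Etv5 was closest to Vegfc (Pearson r = 0.941, n = 15), Mat2a (0.938), Noct (0.934), Kbtbd6 (0.928) and Eaf1 (0.921). For the mean of Egr1, Fos and Jun it was Ezh1 (0.934), Slc17a9 (0.921), Pofut1 (0.907), Rbl2 (0.897) and Tnk1 (0.894). The genes within each mean did not all move together. Dusp6 had r = 0.87 with Etv4, but Etv5 had −0.05 with Spry2 and 0.07 with Dusp6. Fos had 0.85 with Jun, but Egr1 had 0.23 with Jun. A gene close to a mean is therefore not close to each of its members. These values are a description only, since the samples share batches and WT libraries and the closest of many genes is always close.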

How the data were processed

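The data are RNA-seq counts per gene of 15 samples of mouse ESC, made from total RNA depleted of ribosomal RNA with a strand-specific kit. The authors mapped reads to mm9 (NCBIM37) with QuasR, which calls bowtie, placed reads with several matches at 1 of them by chance, and deposited raw counts, by strand, over UCSC known genes; the processing notes name bcl2fastq 2.17. Samples came from at least 2 independent cultures, and the spread between samples also holds technical error.

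The filter kept genes whose counts averaged 10 or more: 13912 for the KO, 13098 for the full-deletion and 13671 for the joint fit. After TMM normalization the main test was edgeR 4.0.16 (R 4.3.3), quasi-likelihood F, with batch as a term in the KO experiment only, as in the study's methods, and Benjamini-Hochberg adjustment over all genes tested. CPM used TMM library sizes set per experiment, and RPKM the exon widths in the tables. In the KO experiment the pairing of samples by letter comes from the batches, and deviations from the group means in letter a had a correlation of 0.36 to 0.81 between groups. Alternatives were DESeq2 1.42.0, limma-trend (limma 3.58.1), other scalings and filters, and leaving out each sample. The batch gap term and the joint fit and overlap counts without WT b were added after the data had been seen. All 10 genes are described. Other genes of the lists are named only where called, the largest changes first and at most 5 per comparison and list, and likeness ranks gave 5 genes each. The genes and lists were chosen with earlier results of these data known. Promoters come from a RefSeq table, and Hras1 of the lists was not matched by symbol. Plots used matplotlib in python.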

Additional observations from a re-analysis of the deposited data

How the results depend on the processing

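Of 345 values that 23 log2 fold changes took under the alternatives, 304 kept direction and side of an adjusted p of 0.05, 26 passed it and 14 lost it, and 1 turned sign, Dusp6 in KO against WT, at 0.0069 without WT a (−1.37 without WT b). With an adjusted p under 0.05 and any fold change as the call rule, the count of genes called rose from 0 to 2 for batch b against batch a and from 0 to 2 for the full deletion. At that threshold, with no filter on low counts 4 passed between batches, beside 22.7% of all genes. In the full deletion 0 passed with summed counts, 4 with DESeq2 and 0 with a replicate block, beside 5.07%, 24.7% and 3.02% of all genes. DESeq2 gave 1 gene (Jun) for the Hmga2 add-back against WT, beside 2.36% of all genes. For the batch gap term (KO-derived lines against WT, batch b minus batch a) it gave 1 (Dusp6), by both rules, beside 0.841% at an adjusted p under 0.05. That term was added after the gap had been seen and describes it without testing it. Leaving out each sample in turn, the genes called ranged from 0 to 1 against WT in each of KO, the Hmga2 add-back and the line labelled Hmga1 add-back. Those at an adjusted p under 0.05 ranged from 0 to 4, 0 to 5 and 0 to 4 in these, from 2 to 6 between batches and from 0 to 8 in the full deletion (8 without WT b). The cause was not tested. In the full-deletion experiment letters did not pair samples (correlations of 0.0839, 0.0944 and −0.0556), so the fit with the replicate block there is given as an alternative only. In the KO experiment the fit with no replicate block called 0 of the 10 genes in each comparison. Over all genes, samples left out aside, counts past an adjusted p under 0.05 moved most with DESeq2: 199 against 9 in KO, 201 against 6 and 328 against 23 in the add-backs against WT, 12 against 0 and 19 against 2 in the add-backs against KO, 3232 against 1080 in the full deletion, 329 against 42 in the joint fit (667 without WT b of the full-deletion experiment) and 117 against 7 for the batch gap. With no filter on low counts they were 93, 70 and 98 against WT, and the full deletion had 396 with the replicate block and 664 with summed counts. Of the 69 pathway genes in the full deletion, 18 passed with DESeq2 (24.7% of all genes), and 5 each with the replicate block (3.02%) and with summed counts (5.07%). Groups of 2 and 3 samples, and 10 to 242 reads for Fos, limit what could be detected.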
